A study of Homo sapiens with 16 samples.

Results

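TXNIP, ARRDC3 and ARRDC4 encode alpha-arrestins, and their expression was followed in MCF10A cells through 45 hours with an inhibitor of the HER2 kinase. The 3 genes were taken by symbol from the intensity table, in which each of them had 1 probe, so that 3 of 20589 rows and 3 of 18190 symbols are described. All 3 rows stood for a single probe, and all 3 were among the 11957 probes that passed the detection filter. MCF10A is an immortalized, nontransformed line of human breast epithelial cells. The cells grew in serum-free medium with insulin and EGF and received the HER2 inhibitor CP724,714 at 1 µM, and RNA was taken every 3 hours from parallel cultures. There was 1 Illumina Ref8v2 array for each of 16 time points from 0 to 45 hours, and the 0 hour cells were untreated. The medium was also changed at the start of treatment. No untreated series was analysed here, so time in culture, time since the medium change and time with the inhibitor cannot be told apart. Fewer cells expressing a gene and less RNA per cell cannot be told apart either.

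The alpha-arrestins are adaptor proteins that recruit ubiquitin ligases of the NEDD4 family to membrane proteins and thereby direct them to internalization. TXNIP, the thioredoxin-interacting protein, also binds and inhibits reduced thioredoxin and restrains glucose uptake by promoting the internalization of glucose transporters. Its gene and ARRDC4 are known targets of the MondoA and ChREBP proteins (genes MLXIP and MLXIPL), which bind carbohydrate response elements together with MLX when glucose phosphates accumulate, and ARRDC3 is known in breast cells for acting on integrin beta-4.

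The promoters of the 3 genes are shown because the known regulators of TXNIP act there and because the genes are followed together below. TXNIP lies on chromosome 1 at 145992435 to 145996579 on the minus strand, ARRDC3 on chromosome 5 at 91368631 to 91383317 on the minus strand, and ARRDC4 on chromosome 15 at 97960703 to 97973833 on the plus strand (RefSeq, GRCh38.p14). The 250 bases before each gene start are at chr1:145996580-145996829, chr5:91383318-91383567 and chr15:97960453-97960702, and are printed 5′ to 3′ on the strand of the gene. Capitals mark matches, on either strand, to CACGNG, the E-box part of a carbohydrate response element, and to GTAAACA, a motif bound by FOXO factors.
TXNIP: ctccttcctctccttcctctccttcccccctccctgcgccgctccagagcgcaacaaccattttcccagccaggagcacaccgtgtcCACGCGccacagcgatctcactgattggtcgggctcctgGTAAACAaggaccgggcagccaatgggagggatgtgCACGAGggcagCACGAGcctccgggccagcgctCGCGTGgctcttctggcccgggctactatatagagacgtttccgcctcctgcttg
ARRDC3: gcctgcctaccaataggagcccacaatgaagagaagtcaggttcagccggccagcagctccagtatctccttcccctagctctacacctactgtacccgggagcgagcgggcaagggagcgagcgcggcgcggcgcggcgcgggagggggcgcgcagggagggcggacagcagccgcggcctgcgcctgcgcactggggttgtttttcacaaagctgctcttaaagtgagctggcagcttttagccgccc
ARRDC4: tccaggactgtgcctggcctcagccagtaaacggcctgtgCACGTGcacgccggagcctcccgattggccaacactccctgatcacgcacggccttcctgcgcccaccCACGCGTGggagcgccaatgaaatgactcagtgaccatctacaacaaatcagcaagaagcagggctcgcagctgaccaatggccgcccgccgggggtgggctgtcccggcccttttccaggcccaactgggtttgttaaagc

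The TXNIP window held 4 matches to CACGNG, which began at bases -163, -88, -77 and -55 from the gene start. The matches at -88 and -77 lie 5 bases apart and together make a spaced pair, CACGNG followed after any 5 bases by CACGNG, the layout of a carbohydrate response element. This pair was found in 16 of 35116 promoter windows of the same length, or 0.0456%, whereas a single CACGNG was found in 26.7%. The TXNIP window also held GTAAACA at -124, a motif found in 2.98% of windows. The ARRDC4 window held CACGTG at -210, found in 6.34% of windows and a form of CACGNG, and 2 further matches to CACGNG that overlap at -142 and -140, without the spaced pair or GTAAACA. None of these letters occurred in the window of the ARRDC3 gene start, but the window of its internal start held CACGNG at -193 and GTAAACA at -29. The window of the internal start of TXNIP held none of them.

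Median intensity ranged from 210 to 254 over the arrays, 50.1% to 52.9% of rows were detected, and no pair of arrays held identical values (highest r = 0.997). The negative control level, against which dim probes are read, was 188 to 199 on the arrays of 0–21 h and 166 to 185 on those of 24–45 h. Of the 7 markers of basal mammary epithelium, KRT5, KRT17, KRT6A, CDH3 and CDH1 were above background on 16 arrays, TP63 on 10 and KRT14 on 1. The hormone receptors ESR1 and PGR and the stromal and endothelial markers COL1A1, COL1A2, COL3A1 and VWF were above background on 0 arrays. FOXA1 and GATA3, PECAM1 and CD68 were detected on 15 or 16 arrays and PTPRC on 5. Of these, GATA3 rose by 0.86, PECAM1 by 0.84 and CD68 by 0.68 on the log2 scale from 0–9 h to 36–45 h (limma, adjusted p = 0.015, 3e-04 and 0.0027), while FOXA1 differed by -0.09 and PTPRC by 0.04. Of the basal markers TP63 rose by 1.73 and KRT17 by 0.69 and KRT6A fell by 1.10 (limma, adjusted p = 6.7e-07, 0.042 and 0.0034). TP63 was above background on 0 of the 4 arrays at 0–9 h. Without background correction the differences were 0.80 for TP63, 0.38 for GATA3, 0.36 for PECAM1, 0.57 for CD68, 0.68 for KRT17 and -0.90 for KRT6A. The summed normalized intensity of the 7 basal markers was 39615 to 63946 at 0–9 h and 55173 to 61006 at 36–45 h, and that of the 4 luminal markers was 329 to 471 at 0–9 h and 391 to 478 at 36–45 h. For the 9 probes of the 7 fibroblast, endothelial and leukocyte markers it was 877 to 1318 and 1560 to 1723. CD68 was the brightest of their tested probes, with log2 means of 9.47 and 10.16 in these sets. The part of other cells in the changes below was not tested.

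TXNIP was a bright probe whose level fell within the first 6 hours, stayed low for most of the first day and rose above its starting level in the last 12 hours. Its deposited intensity was 9901 at 0 hours, 9180 at 3 hours, 3606 at 6 hours and 3597 at 9 hours. It was 5302, 4988, 5284 and 5500 at 12, 15, 18 and 21 hours. It was then 4105 at 24 hours, 6196 at 27 hours, 7237 at 30 hours and 10356 at 33 hours. Each value from 6 to 30 hours lay below both of the first 2. At 36, 39, 42 and 45 hours the intensity was 23100, 23739, 24830 and 25342, so that each of the last 4 arrays exceeded every earlier one. On the normalized log2 scale, on which all differences below are given, the highest level (14.75 at 45 hours) was 7.87-fold the lowest (11.77 at 9 hours). At 45 hours TXNIP was at 2.74-fold its 0 hour level and at 9 hours at 0.348 of it, and 12 of the 15 later time points were at least 1.7-fold away from 0 hours. The 1.7-fold step is the one the study's methods use for a related line, and 43.7% of all tested probes passed it at some later time point.

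ARRDC3 and ARRDC4 were dim throughout, and their courses are read against the control level of each array. ARRDC3 had an intensity of 443 at 0 hours, 367 at 3 hours, 293 at 6 hours and 297 at 9 hours. At 12–21 h it was 296, 285, 284 and 301, and at 24–33 h 293, 278, 245 and 311. At 36, 39, 42 and 45 hours it was 412, 410, 337 and 425. The values of 0, 36, 39 and 45 hours were thus the highest of the series, and 30 hours the lowest. ARRDC3 was above background on 16 of 16 arrays, at 1.89 SD of the control beads above their mean at 30 hours and 7.32 SD at 45 hours. After background correction, its level at 45 hours was 3.55-fold that at 30 hours, while the deposited intensities differed 1.74-fold. It was at least 1.7-fold away from its 0 hour level at 10 later time points.

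ARRDC4 had an intensity of 259 at 0 hours, 329 at 3 hours, 261 at 6 hours and 264 at 9 hours. At 12–21 h it was 244, 261, 257 and 252, and at 24–33 h 208, 212, 266 and 248. At 36, 39, 42 and 45 hours it was 324, 313, 321 and 323. The last 4 values lay close together and above all earlier ones but that of 3 hours. ARRDC4 was above background on 14 of 16 arrays, and not at 24 and 27 hours, when it was 0.87 and 0.90 SD of the control beads above their mean. After background correction, its level at 45 hours was therefore at least 2.75-fold that at 27 hours, while the deposited intensities differed 1.52-fold. ARRDC4 was at least 1.7-fold away from 0 hours at 5 time points, which were 3 hours and those at 36–45 h, in each case in the direction of a higher level. That count too is of background-corrected levels, and the highest deposited intensity was 329 against 259 at 0 hours.

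**Figure D1:**
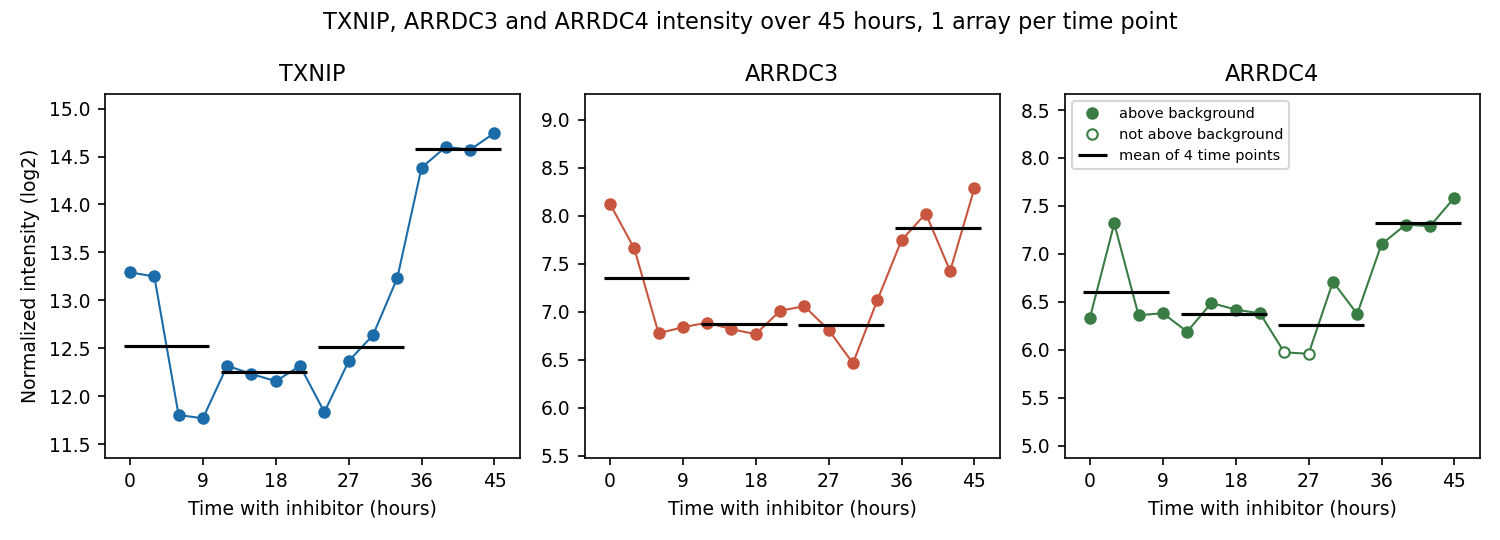
Normalized intensity (log2) of the TXNIP, ARRDC3 and ARRDC4 probes against hours with the inhibitor, 1 array per point, with bars for the mean of each 4 consecutive time points and open points where the probe was not above background. The 3 vertical axes span the same number of log2 units, and the last bar lies 2.06, 1.01 and 1.07 above the one before it.

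**Figure D2:**
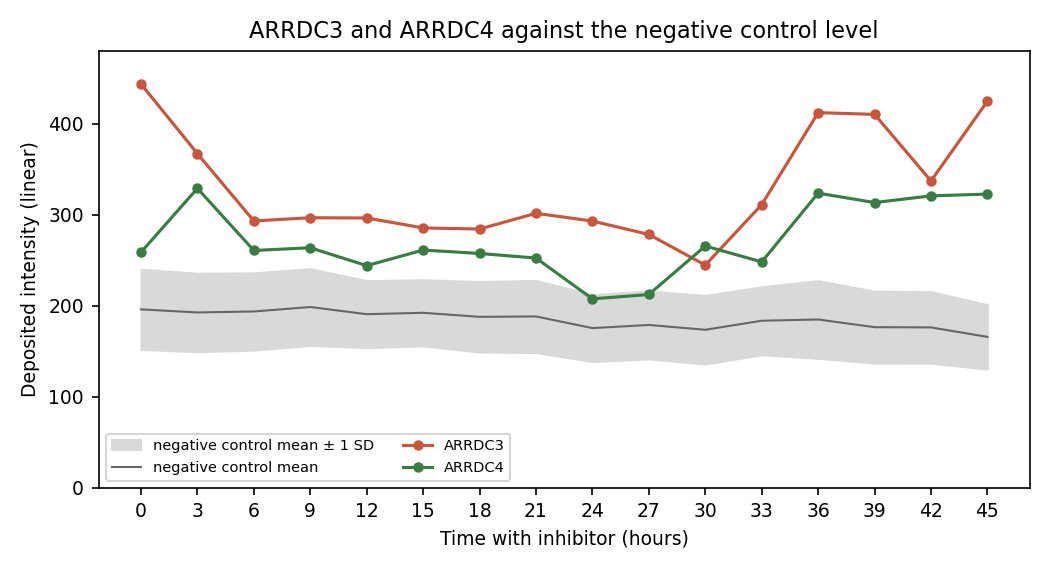
Deposited intensity (linear) of ARRDC3 and ARRDC4 against hours with the inhibitor, with the mean and 1 SD of the negative control beads as a line and a grey band. ARRDC4 lies within the band at 24 and 27 hours, and both probes stand farthest above the control mean at 45 hours, by 7.32 SD for ARRDC3 and 4.44 SD for ARRDC4.

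All 3 probes varied with time. In limma's F-test on a spline of time with 3 degrees of freedom, the adjusted p was 2.2e-06 for TXNIP, 0.00077 for ARRDC3 and 0.0011 for ARRDC4, where 54.7% of all tested probes were called. A straight line in time gave an adjusted p in limma of 0.016 for TXNIP, 0.47 for ARRDC3 and 0.13 for ARRDC4. The sets of time points compared next follow the fall and the rise in turn.

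The early fall was tested as 6 and 9 hours against 0 and 3 hours, in a fit of 8 pairs of neighbouring arrays. TXNIP fell by 1.48 on the log2 scale (SE 0.16, limma, adjusted p = 9.7e-06), a 2.80-fold decrease, and a fall at least as large was seen in 0.594% of the tested probes. ARRDC3 fell by 1.09 (SE 0.27, limma, adjusted p = 0.0064), a 2.12-fold decrease, and by 0.54 without background correction. Called decreases made up 11.5% of all tested probes. ARRDC4 had a difference of -0.46 (SE 0.25, 95% interval -0.98 to 0.07, limma, adjusted p = 0.2), and its first 2 arrays differed from each other by 0.98. Both smaller results depended on single arrays. Without the 0 hour array the change of ARRDC3 was -0.86 (limma, adjusted p = 0.062) and that of ARRDC4 -0.95 (limma, adjusted p = 0.0066), and without the 3 hour array the value of ARRDC4 was 0.04 (limma, adjusted p = 0.93).

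Single steps between neighbouring arrays have no test and are given as values. Most are set beside the share of tested probes, bright and dim alike, with a step at least as large in the same direction. These shares are not matched for intensity. From 3 to 6 hours the step was -1.44 for TXNIP, which 0.335% of probes matched. It was -0.88 for ARRDC3 and -0.96 for ARRDC4, which 2.4% and 1.89% of probes matched. From 0 to 3 hours the step was -0.04 for TXNIP, -0.47 for ARRDC3 and 0.98 for ARRDC4. Of the tested probes 44.4%, 7.94% and 1.21% matched these. The 3 genes had a lower value at 6 than at 3 hours in common, but at 3 hours they stood at different places relative to 0 hours.

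From 12 to 33 hours each gene was compared set by set with the time points before. TXNIP had a mean of 12.53 ± 0.86 (SD, n = 4 time points) at 0–9 h, 12.26 ± 0.08 at 12–21 h and 12.52 ± 0.58 at 24–33 h. ARRDC3 had 7.35 ± 0.66, 6.87 ± 0.11 and 6.86 ± 0.30, and ARRDC4 6.60 ± 0.48, 6.37 ± 0.13 and 6.25 ± 0.36. Each of these sets overlapped the next in range for every gene. The difference between 12–21 and 0–9 h was -0.27 for TXNIP, -0.48 for ARRDC3 and -0.23 for ARRDC4, and that between 24–33 and 12–21 h 0.26, -0.01 and -0.12. None of these 6 differences passed limma's test (adjusted p of 0.17 or more, and none under 0.05 before adjustment), whereas 14.4% of all tested probes were called lower at 12–21 h than at 0–9 h. In the later of the 2 comparisons 0.0251% were called lower. The 0–9 h set holds arrays before and after the early fall, so 12–21 against 0–9 h could hardly show a fall complete by 6 hours. Relative to 0 hours, the values at 12–21 h were -0.97, -1.06, -1.13 and -0.98 for TXNIP and -1.24, -1.31, -1.36 and -1.11 for ARRDC3. For ARRDC4 they were -0.15, 0.15, 0.08 and 0.05. With 1 array left out, the difference between 12–21 and 0–9 h ranged from -0.53 to -0.02 for TXNIP and from -0.67 to -0.22 for ARRDC3, and that of TXNIP between 24–33 and 12–21 h from 0.02 to 0.49. Without the 3 hour array ARRDC4 differed by 0.01 between 12–21 and 0–9 h, and the small value of ARRDC3 in the later comparison changed sign without 21, 27 or 30 hours (0.04, 0.01 and 0.12).

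The step from 21 to 24 hours was -0.48 for TXNIP (matched by 3.04% of probes), -0.41 for ARRDC4 (4.83%) and 0.05 for ARRDC3 (40.2%). From there TXNIP had steps of 0.53 to 27 hours, 0.27 to 30 hours and 0.60 to 33 hours, so that its 33 hour value was close to that of 0 hours. A step of at least 0.60 from 30 to 33 hours was seen in 0.995% of tested probes. ARRDC4 had a step of 0.75 from 27 to 30 hours, which 0.226% of probes matched, but it started from a value not above background. ARRDC3 had a step of 0.66 from 30 to 33 hours, which 0.611% of probes matched.

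All 3 genes were higher in the last 4 time points than in the 4 before. TXNIP was at 14.58 ± 0.15 (SD, n = 4 time points) at 36–45 h, 2.06 above 24–33 h (SE 0.31, limma, adjusted p = 5.4e-05), or 4.16-fold. ARRDC3 was at 7.87 ± 0.37, 1.01 above (SE 0.26, limma, adjusted p = 0.0045), or 2.01-fold, and ARRDC4 at 7.32 ± 0.20, 1.07 above (SE 0.21, limma, adjusted p = 0.00059), or 2.10-fold. Without background correction the differences were 0.51 for ARRDC3 and 0.47 for ARRDC4, both still called, and 2.02 for TXNIP. For ARRDC4, 2 of the 4 arrays at 24–33 h were above background. In this comparison 19.3% of all tested probes were called higher. For none of the 3 genes did the values of 36–45 h overlap those of 24–33 h, as was so, in the direction of an increase, for 22.2% of tested probes. An increase as large as that of TXNIP was seen in 0.259% of tested probes, one as large as that of ARRDC3 in 2.41% and one as large as that of ARRDC4 in 2.12%. The step from 33 to 36 hours was 1.15 for TXNIP, 0.63 for ARRDC3 and 0.73 for ARRDC4. A step at least as large was seen in 0.895%, 6% and 3.92% of tested probes.

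Of the 3 genes, TXNIP alone ended clear of its own starting range. Its difference between 36–45 and 0–9 h was 2.05 (SE 0.31, 95% interval 1.39 to 2.70, limma, adjusted p = 8.6e-05), or 4.13-fold, without overlap of the values. The 0–9 h set of TXNIP held 13.29 and 13.25 before the early fall and 11.80 and 11.77 after it, which lowers its mean. Relative to 0 hours alone the last 4 arrays were at 2.13-, 2.48-, 2.43- and 2.74-fold. Between 36–45 and 0–9 h 16.2% of tested probes were called higher, 13.6% were higher without overlap, and 0.167% had an increase as large as that of TXNIP. Over all tested probes 1932 were called higher and 1797 lower, and with arrays scaled by their medians 2793 and 1029. ARRDC4 was 0.72 higher (SE 0.21, limma, adjusted p = 0.013), or 1.65-fold, but its 3 hour value (7.32) lay within the range of the last 4 arrays. ARRDC3 differed by 0.52 (SE 0.26, 95% interval -0.02 to 1.06, limma, adjusted p = 0.13), its 0 hour value (8.12) being exceeded at 45 hours (8.29) and at no other time point. Without the 0 hour array ARRDC3 was 0.78 higher (limma, adjusted p = 0.011), and with arrays scaled by their medians it was 0.64 higher (limma, adjusted p = 0.045). The control level changed between the arrays of 21 and 24 hours, and the difference was also taken as the sum of 12–21 against 0–9 h and 36–45 against 24–33 h, which leaves out that between 12–21 and 24–33 h. In this form TXNIP was 1.79 higher (limma, adjusted p = 0.011) and ARRDC4 0.84 higher (limma, adjusted p = 0.067).

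**Figure D3:**
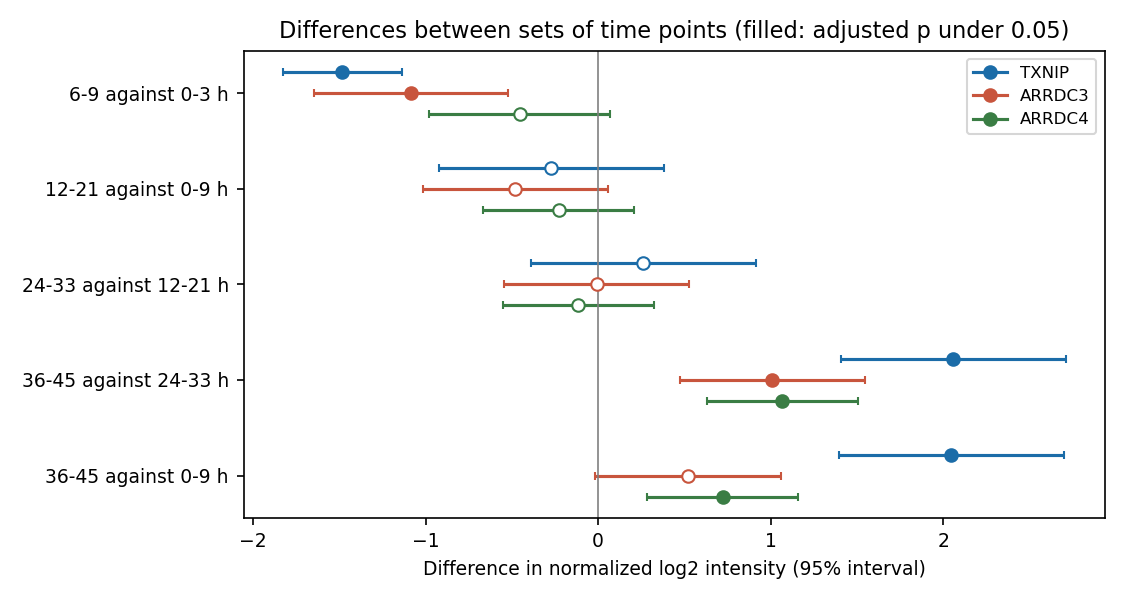
Difference in normalized log2 intensity of TXNIP, ARRDC3 and ARRDC4 between sets of time points, with bars for limma's 95% interval and filled points for an adjusted p under 0.05. All 3 points are filled for 36–45 against 24–33 h, and the TXNIP points at 2.05 and 2.06 lie farthest to the right.

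ARRDC3 did not hold 1 level over the last 4 arrays. Its value changed by -0.60 at 42 hours, a step that 1.21% of tested probes matched, and by 0.87 at 45 hours, which 0.159% matched. The deposited intensities behind these steps were 410, 337 and 425 at 39, 42 and 45 hours, and the shares are over bright and dim probes alike. TXNIP had steps of -0.03 and 0.17 and ARRDC4 of -0.02 and 0.30 there. With 1 array at each time point the 42 hour value of ARRDC3 has no replicate check.

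As a description of likeness over the 16 arrays, which share the time axis and its trends, r was 0.81 between TXNIP and ARRDC3, 0.85 between TXNIP and ARRDC4 and 0.66 between ARRDC3 and ARRDC4. Spearman's rho was 0.75, 0.59 and 0.40. Over the 12 arrays of 0–33 h, without the late rise, r was 0.66, 0.49 and 0.25. Many other probes were as alike to TXNIP, since 820 of the other 11956 had an r over 0.8 and ARRDC4 ranked 506th and ARRDC3 738th among them. TXNIP ranked 114th for ARRDC4 and 358th for ARRDC3.

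The probes most like TXNIP were those of NEBL, an actin-binding nebulin relative (r = 0.98), WDR19, a protein of intraflagellar transport (0.97), ERBB3, the receptor that pairs with HER2 (0.97), ATP6V1B1, a subunit of the vacuolar proton pump (0.97), and FNDC6, now named IL20RB, an interleukin receptor chain (0.97). Over 0–33 h their r with TXNIP was 0.88, 0.89, 0.86, 0.87 and 0.85. ERBB3 went from 10.28 ± 0.50 at 0–9 h to 11.73 ± 0.10 at 36–45 h, and ATP6V1B1 from 10.94 ± 0.53 to 13.09 ± 0.24. At 0 hours ERBB3 was at 10.92 and ATP6V1B1 at 11.41. The most opposite probes were C20orf42, now named FERMT1, which encodes the integrin activator kindlin-1 (r = -0.98), and TBL2 (-0.97).

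ARRDC3 had other neighbours. The most alike probes were CTGF, now named CCN2, a matricellular growth factor (r = 0.96), ARL6IP5 (0.94), FLJ20152 (0.94), TNS3, a tensin of focal adhesions (0.94), and PAK3, a kinase activated by small GTPases (0.94). CTGF had an r of 0.94 with ARRDC3 over 0–33 h. Its mean was 10.06 ± 0.68 at 0–9 h and 10.65 ± 0.23 at 36–45 h, but it was at 10.85 at 0 hours and at 10.89 at 45 hours. FSCN1, which encodes the actin-bundling protein fascin (-0.93), and EMG1, a ribosome assembly factor (-0.95), ran opposite to it. For ARRDC4 the most alike probes were CPEB3, an RNA-binding protein (0.92), MOAP1 (0.92), another probe of NEBL (0.92), UNC50 (0.91) and JMJD1A, now named KDM3A, a histone demethylase (0.91). Over 0–33 h their r with ARRDC4 was 0.81, 0.79, 0.76, 0.81 and 0.71. CPEB3 was above background on 7 of 16 arrays and FLJ20152, named for ARRDC3, on 10. POLQ, a DNA repair polymerase (-0.92), and MSTO1 (-0.91) were most opposite to it. NEBL was thus named for both TXNIP and ARRDC4, by different probes, and no gene was named for all 3.

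**Figure D4:**
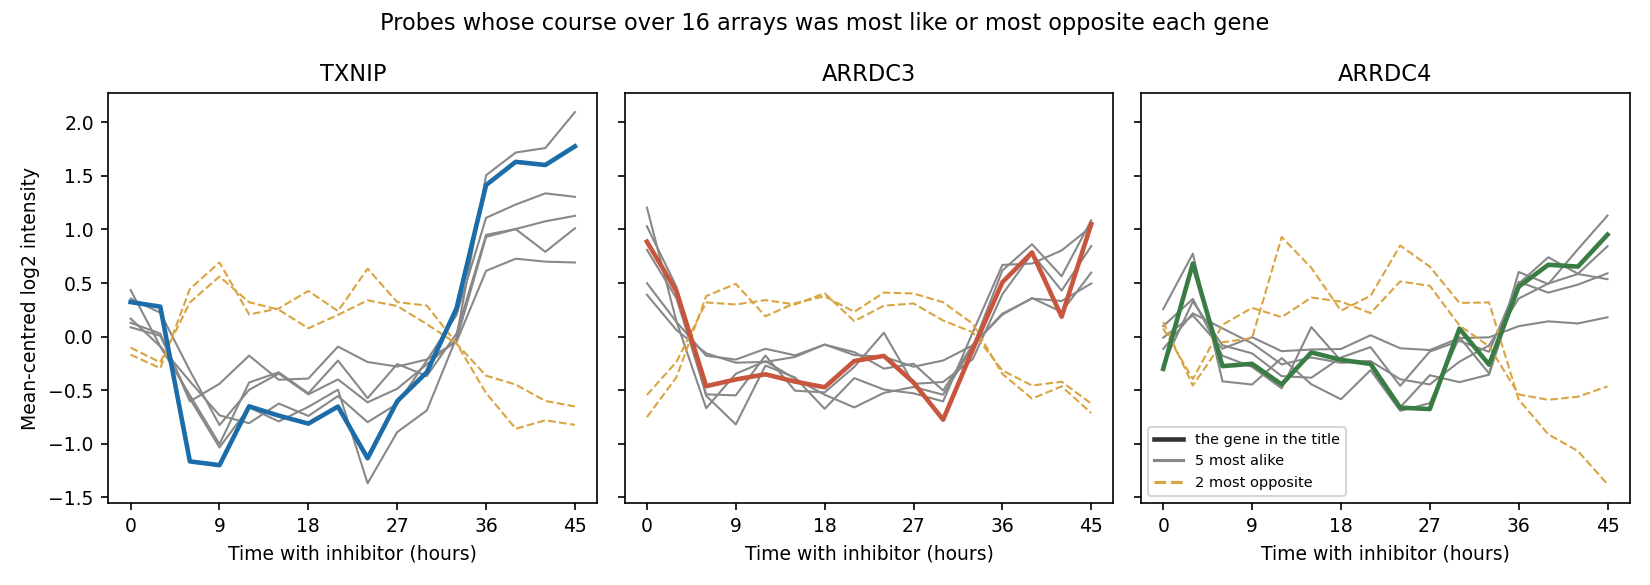
Normalized log2 intensity minus its mean over 16 arrays against hours with the inhibitor, for TXNIP, ARRDC3 and ARRDC4 (thick lines) with the 5 probes of highest r (grey) and the 2 of lowest r (dashed). The probes like TXNIP stand above all their earlier values from 36 hours on, whereas those like ARRDC3 start and end high.

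Of 57 genes listed for the surroundings of the alpha-arrestins, 55 were on the array and 44 were tested. Between 36–45 and 0–9 h 6 of them were called higher and 7 lower, against 16.2% and 15% of all tested probes, and 24 of the 44 were called in the spline test, which called 54.7% of all tested probes. The median change was -0.05 over the listed genes and -0.02 over all tested probes. Among the other arrestins, 4 of 7 genes were tested, and ARRDC2, a further alpha-arrestin, was the 1 that rose. ARRDC2 went from 6.79 ± 0.17 to 7.86 ± 0.16, a log2 difference of 1.07 (limma, adjusted p = 4.9e-06) that was 0.52 without background correction. It was above background on 0 of the first 4 and 2 of the last 4 arrays, and its row combines several probes. Without 21, 36 or 39 hours it no longer met the filter of 3 arrays and was not tested. ARRDC1 differed by -0.29 and the beta-arrestin genes ARRB1 and ARRB2 by -0.03 and -0.20, none of which passed the test.

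Of the MLX network, through which glucose acts on TXNIP, 5 of 6 genes were tested in limma and 0 were called in this comparison, with 1 under 0.05 before adjustment. With median scaling or without the 0 hour array 1 was called higher, and without the 3 hour array 2. In the spline test MNT and MXD4 were called (limma, adjusted p = 0.034 and 2.4e-06). MLXIP, which encodes MondoA, was above background on 0 arrays. MXD4, a transcriptional repressor that pairs with MAX and MLX, had the largest difference of that list (0.82, limma, adjusted p = 0.062). TXN, the thioredoxin that TXNIP binds, differed by -0.07 (limma, adjusted p = 0.27). In the thioredoxin system 1 of 10 tested genes rose and 3 fell, whereas 3 rose and 1 fell with median scaling. The nucleoredoxin gene NXN rose by 0.59 (limma, adjusted p = 0.0036), or by 0.31 without background correction. The peroxiredoxin genes PRDX2, PRDX4 and PRDX5 fell by 0.41, 0.19 and 0.26 (limma, adjusted p = 0.0043, 0.017 and 0.0017). PRDX2 is a combined row that was above background on 3 of 16 arrays, which just met the filter. It was so on 0 arrays at 0–9 h and on 1 at 36–45 h, although its intensity was 2214 to 3958. With median scaling PRDX5 differed by -0.16 (limma, adjusted p = 0.077).

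Of the NEDD4 family ligases, to which alpha-arrestins bind through PPxY motifs, 6 of 9 genes were tested. WWP1 rose by 0.29 (limma, adjusted p = 0.044) and WWP2 fell by 1.37 (limma, adjusted p = 6.2e-06), while ITCH differed by -0.06. Without background correction the difference of WWP2 was -0.73. A second, dimmer WWP2 probe differed by 0.002, and the call of WWP1 held in 5 of the 16 fits that left out 1 time point.

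Among glucose transporters and hexokinases 8 of 11 genes were tested, 1 rose and 2 fell. SLC2A1, which encodes GLUT1, a transporter that TXNIP acts on, had means of 9.77, 8.56, 8.59 and 8.85 in the 4 sets of time points and was 0.92 lower at the end (SE 0.12, limma, adjusted p = 1.8e-05). Its last mean stayed below its first, whereas that of TXNIP rose above it. SLC2A6 fell (limma, adjusted p = 5.3e-05) to a level above background on 1 of the last 4 arrays, with a difference of -1.60, or -0.76 without background correction. SLC2A12 rose by 1.02 (limma, adjusted p = 0.0023), with 2 of the first 4 and 4 of the last 4 arrays above background. Without background correction its difference was 0.46. Of AMPK and its kinase LKB1, 6 of 8 genes were tested. PRKAB2 rose by 0.97 (limma, adjusted p = 7e-05), or by 0.49 without background correction. PRKAG1 fell by 1.31 (limma, adjusted p = 0.00025), with a difference of -0.60 without background correction. Its means in the 4 sets of time points were 7.52, 7.48, 5.23 and 6.21, with 4, 4, 0 and 2 detections. Its lowest intensity, 36.9, lay below the lowest control mean of 166. The drop of PRKAG1 thus came between 12–21 and 24–33 h, where the control level also changed, and a part of the arrays in it was not tested.

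Of 5 other partners and cargo proteins, ITGB4, the integrin beta-4 that ARRDC3 acts on, rose by 1.24 (SE 0.13, limma, adjusted p = 1.5e-06). It went from 11.28 ± 0.35 at 0–9 h to 12.52 ± 0.03 at 36–45 h on its brighter probe, while a dim second probe differed by -0.22 (limma, adjusted p = 0.315). DDIT4, which encodes the TXNIP partner REDD1, differed by 0.08 and did not pass the test.

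**Figure D5:**
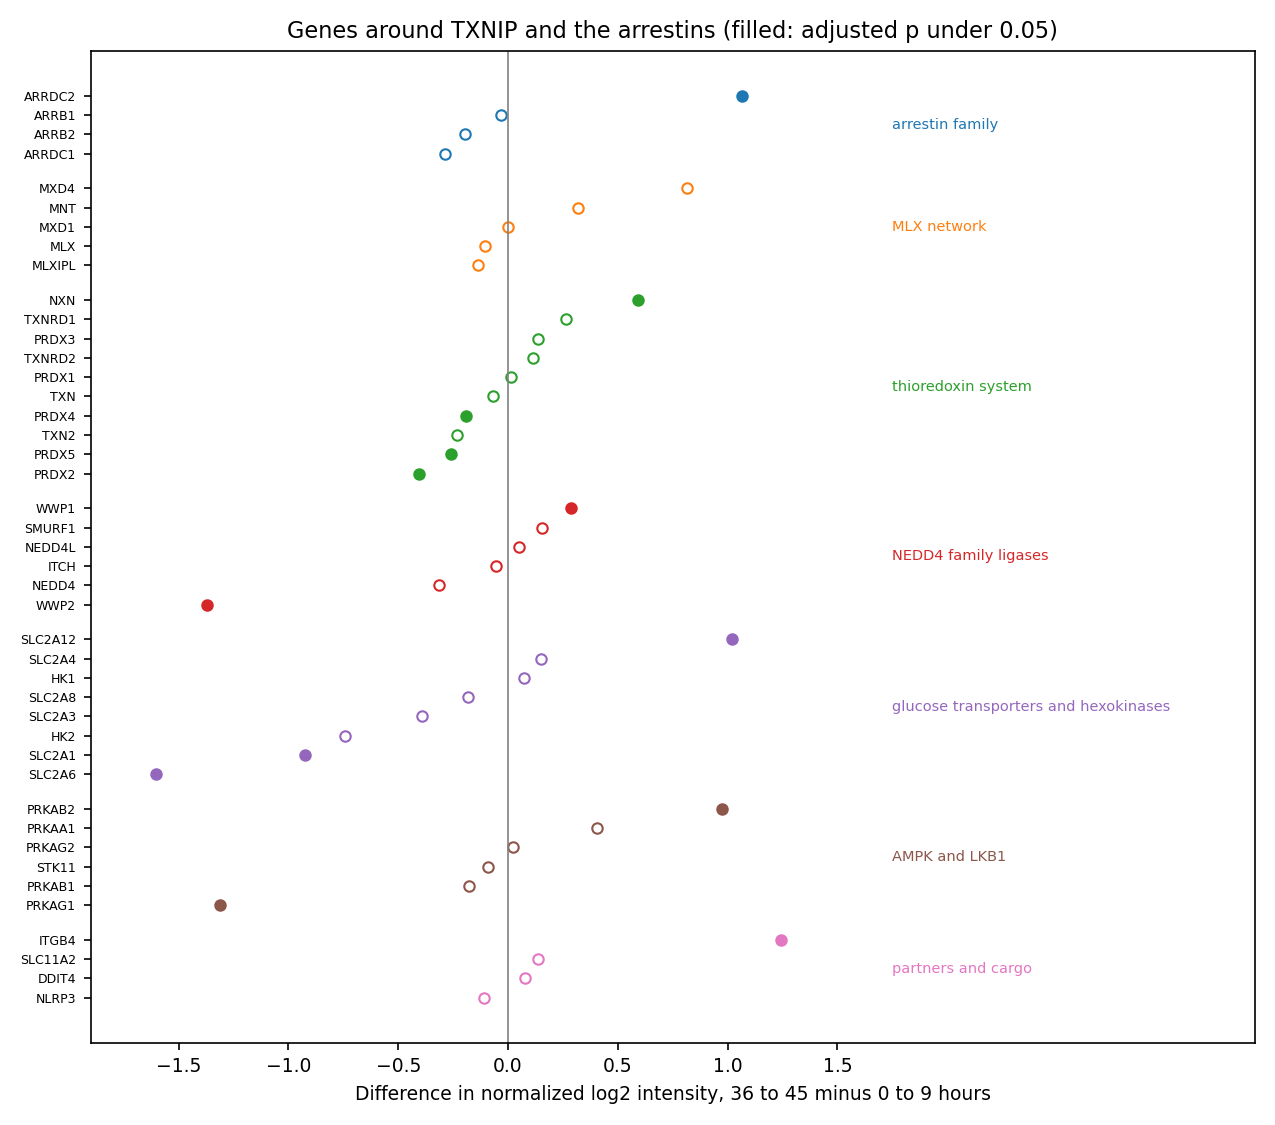
Difference in normalized log2 intensity between 36–45 and 0–9 h for 43 of the 44 tested genes of the 7 lists, filled where limma's adjusted p was under 0.05 and coloured by list. ARRDC2, SLC2A12 and ITGB4 rose by more than 1 and SLC2A6, WWP2 and PRKAG1 fell by more than 1, of which ITGB4 alone passed 1 without background correction (1.19).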

How the data were processed

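Total RNA of MCF10A cells at 16 time points was hybridized to Illumina Ref8v2 arrays, 1 array per time point. The authors deposited linear intensity values for each row, not normalized between arrays, and for each value a detection p-value against the negative control beads. The methods state quantile normalization of compared arrays, while the summary software is not given in the sources used here. The members and gene lists were chosen with earlier results of these data known. A row was taken to be a single probe (19092 rows) if its detection p-values were multiples of 1 in 708 within 0.001, and otherwise a combination of probes (1497 rows), and the control level was inferred from the former. After normexp correction with an offset of 16, the arrays were quantile normalized on the log2 scale (limma 3.58.1 in R 4.3.3, figures with matplotlib 3.10.9). Probes had to be detected (p under 0.05) in 3 or more of the 16 arrays to be tested. Without background correction the changes of dim probes are smaller, and the offset understates them too.

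Tests in limma, with an intensity trend, were an F-test on a natural spline of time (3 degrees of freedom, 12 residual), contrasts of 4 sets of 4 consecutive time points, and 6 and 9 against 0 and 3 hours in a fit of 8 pairs. These sets are not replicates, so their SD also holds change within a set, and the number of arrays limits the precision. Adjusted p-values use the Benjamini-Hochberg method over all 11957 tested probes. The code was tested on simulated data. The ratio of 2 arrays whose lower value was not above background is given as a bound, with the dimmest detected probe of the array, or the probe itself if brighter, as its floor. Genes named beside the 3 members were, per list, up to 3 with the largest change among those past both tests and those behind counts of 5 or fewer, and per member the 5 probes of highest and 2 of lowest r. ARRDC1, ARRB1, ARRB2, MNT, MXD4, TXN, ITCH, DDIT4, FOXA1 and PTPRC were named after their values were seen. For listed genes with several probes the brightest was used, and 1 listed gene is not reported here. Symbols are those of the file, renamed through RefSeq where noted. Promoter windows end at the base before each annotated start.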

Additional observations from a re-analysis of the deposited data

How the results depend on the processing

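Every TXNIP result kept its direction and its side of the threshold under all alternatives run, which were uncorrected background, a larger offset (50), scaling by medians or cyclic loess, other detection filters, a prior without trend, other curves, fits of only the arrays compared and leaving out each time point. Its difference between 36 to 45 and 0 to 9 hours ranged from 1.79 to 2.19, and from 1.79 to 2.30 with 1 time point left out. With median scaling ARRDC3 was 0.64 higher at 36 to 45 than at 0 to 9 hours, and 0.0301 higher at 24 to 33 than at 12 to 21 hours, where the main value was -0.01. With a straight line in time the adjusted p in limma was 0.47 for ARRDC3 and 0.13 for ARRDC4, and 1950 probes were called in place of 6535. With the difference between 12–21 and 24–33 h left out, an alternative chosen after seeing the data, ARRDC4 was 0.84 higher at 36 to 45 than at 0 to 9 hours and no longer called, and 868 probes were called higher and 749 lower in place of 1932 and 1797. In fits of only the arrays compared these were 1355 and 1119. Of the listed genes, 10 were called higher with median scaling in place of 6, and 4 lower in place of 7 when detection on all 16 arrays was required, a filter that ARRDC4 did not pass.

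With 1 time point left out, ARRDC3 ranged from 0.33 to 0.78 between 36 to 45 and 0 to 9 hours, from -0.0932 to 0.125 between 24 to 33 and 12 to 21 hours and from -1.33 to -0.86 between 6 to 9 and 0 to 3 hours. ARRDC4 ranged from -0.32 to 0.0103 between 12 to 21 and 0 to 9 hours and from -0.95 to 0.0366 between 6 to 9 and 0 to 3 hours. The cause of these differences was not tested. The dimness of ARRDC3 and ARRDC4, at 0.87 to 7.32 SD above the control beads, limits their values. No paired analysis was possible because each time point had a single array.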
